A study of Mus musculus with 12 samples.

Results

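The TRIM family is a large group of ubiquitin ligases and related proteins, and all of its genes that carry a Trim name on the array, apart from Trim63, are described here across 4 groups of mouse gastrocnemius, a calf muscle. Members were all genes whose name on the array begins with Trim and a number, which gave 51 genes, or 52 with Trim63, among 27597 gene names. Each gene was represented by its brightest probe. A probe was kept when its signal was well above background on all 3 arrays of at least 1 group, which left 35 of the 51 members among 15226 genes tested.

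The 12 samples were whole gastrocnemius muscles of adult male CD1 mice. They came from Smad4 knockout (KO) mice 14 days after denervation, KO control muscles that kept their nerve, wild-type (WT) mice 14 days after denervation, and WT control muscles, with 3 arrays in each group. Different animals were used for each of the 3 experiments, and the sources used here do not say which promoter or cell type drove the deletion of Smad4, a signal carrier of the TGF-beta and BMP pathways. RNA of each sample was labelled with 1 dye and hybridised to an Agilent array of its own.

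Between 50.9% and 57.0% of spots on an array were well above background, and correlations between arrays of a group ran between 0.974 and 0.985 over the genes tested. No KO array reached the Smad4 level of any WT array, with a mean difference of -1.42 on the log2 scale in denervated muscle and -1.46 in control muscle. All 10 skeletal muscle fibre markers, Acta1 and Ckm among them, were measured. In denervated against control muscle, 7 of the 10 were lower in KO and 1 of the 10 in WT. The difference between these KO and WT responses was called for none of the 10, beside 0.184% of all genes tested. Endothelial markers were lower for 7 of 8 in KO and 6 of 8 in WT, Schwann cell markers for 5 of 7 in each genotype, and macrophage markers were higher for 6 of 12 in KO and 3 of 12 in WT. Of all genes tested, 23.7% were higher and 23.2% lower in KO, and 18.7% were higher and 20.6% lower in WT. These are bulk samples, so fewer cells of a type and less RNA per cell cannot be told apart.

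Most TRIM proteins share a RING finger, 1 or more B-boxes and a coiled coil, and differ in the domain at the C-terminal end, which selects their targets. Trim14, Trim16, Trim29 and Trim44 are members without a RING finger. The RING finger passes ubiquitin to a target protein. The muscle RING finger proteins bind titin and other sarcomere proteins, Trim32 is mutated in a human limb-girdle muscular dystrophy, and the PRY-SPRY members include many that act in the antiviral interferon response. The PHD and bromodomain members, also called TIF1 proteins, work on chromatin in the nucleus.

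Values below are levels or differences on the log2 scale. A level is the log2 signal of the probe minus the 75th percentile of its array, so that 0 stands at that percentile, and levels of different probes are not comparable. A difference of 1 is a 2-fold change. Calls are made with limma, at a Benjamini-Hochberg adjusted p under 0.05 over all 15226 genes.

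The 16 members that did not pass the filter were Trim6, Trim9, Trim14, Trim15, Trim17, Trim29, Trim31, Trim36, Trim42, Trim50, Trim52, Trim59, Trim60, Trim61, Trim67 and Trim69. They are named only, and a signal near background does not show that a gene was not expressed. Of the 35 kept members, 32 were well above background on all 12 arrays. The other 3 were Trim10, which passed only on the 3 WT control arrays, Trim46 and Trim62. By domain, 17 of 23 PRY-SPRY members were kept, all 4 PHD and bromodomain members, all 3 with NHL repeats, both muscle RING finger members, and 1 of 4 with a COS box, a fibronectin domain and a SPRY domain.

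Denervation was accompanied by calls in both directions among the TRIM genes, and by about as many as among all genes. In KO muscle 17 of 35 members were called, 8 higher and 9 lower, which is 48.6% of them, against 46.9% of all genes tested (23.7% higher and 23.2% lower). In WT muscle 16 of 35 were called, 8 higher and 8 lower, which is 45.7%, against 39.2% of all genes (18.7% higher and 20.6% lower). The median log2 difference of the 35 members was -0.01 in KO and -0.11 in WT, beside 0.00 and -0.02 for all genes tested. The lower calls include Trim10, which entered the fit through WT control arrays alone and was not well above background in KO, so that its calls support nothing about its level. Without it 16 of 34 members were called in KO and 15 of 34 in WT. When arrays were scaled to their median in place of the 75th percentile, the WT members divided into 5 higher and 8 lower. The WT count of higher calls also fell to 4 without WT control 1, 5 without WT denervated 1 and 5 without WT denervated 2, and the count of lower calls was 5 without WT control 1.

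The KO and WT differences come from different arrays, but all arrays share a common estimate of the spread, so their calls are not independent. Besides Trim10, 12 members were called in the same direction in both. That is 12 of 16 KO calls and 12 of 15 WT calls, Trim10 left out of each. Trim8, Trim11, Trim13, Trim16, Trim25, Trim39 and Trim55 were higher in both, and Trim24, Trim35, Trim47, Trim65 and Trim66 were lower in both. Across these 34 members the KO and WT differences had a Pearson correlation of 0.93 and a Spearman correlation of 0.86, as a description over genes measured on slides that the groups share. Without Trim55 and Trim66 as well, the Pearson correlation over the remaining 32 was 0.87. The sign was the same for 27 members and opposite for 7, which were Trim2, Trim12, Trim27, Trim28, Trim33, Trim41 and Trim68. No matching share of shared calls or signs and no correlation over all genes is given. The agreement between genotypes is thus not shown to be particular to TRIM genes. Arrays of denervated and control muscle did not overlap for 48.6% of the members in KO, where 56.7% of all genes did not overlap, and for 60.0% of the members in WT, where 53% of all genes did not. Both of these shares count Trim10 among the members without overlap.

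**Figure D1:**
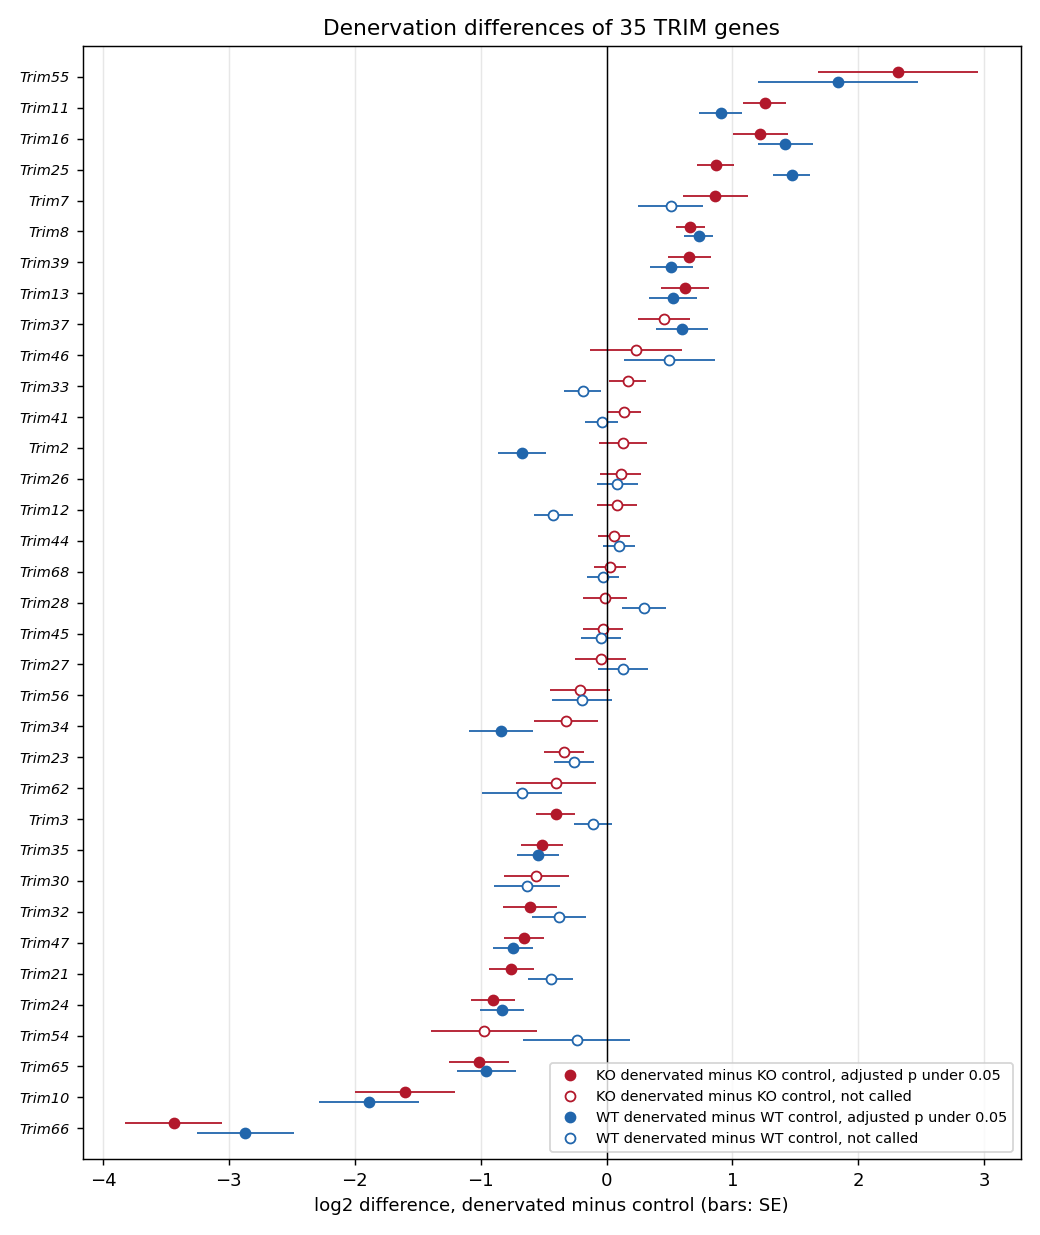
Log2 difference between denervated and control muscle (horizontal axis) for the 35 kept TRIM genes, ordered by the KO value, with KO in red above WT in blue. Bars are standard errors of the fit on 3 arrays a group, and filled points passed an adjusted p of 0.05. Trim55 lies farthest to the right and Trim66 farthest to the left in both genotypes, and Trim10 was not well above background in either KO group.

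The muscle RING finger genes differed from each other. Trim55, also called MuRF2, binds titin and microtubules in developing and adult muscle. Its level was 2.64, 4.11 and 3.00 on the KO denervated arrays, against 1.61, -0.25 and 1.44 on the KO control arrays. In WT it was 1.09, 2.80 and 1.23 on denervated arrays, against -1.07, 0.09 and 0.59 on control arrays. Denervated and control arrays did not overlap in either genotype. The spread within each group was wide, as these values show. The difference was 2.32 ± 0.63 (SE, n = 3 arrays a group) in KO, a 4.98-fold higher level with an adjusted p of 0.0114 by limma. In WT it was 1.84 ± 0.63, 3.58-fold, with an adjusted p of 0.0391.

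The WT call of Trim55 rested on few arrays. Same-numbered WT arrays deviated together, and with the replicate number as a block the adjusted p in WT was 0.0554. It was also lost without WT denervated 2 (difference 1.29, adjusted p 0.15), WT control 1 (1.37, adjusted p 0.139), WT control 2 (adjusted p 0.0693) or KO denervated 3 (adjusted p 0.0501). In KO the call was lost without KO denervated 2, with an adjusted p of 0.0503. Arrays lay on 4 slides, and within a slide Trim55 was higher in KO denervated than KO control muscle by 1.55 and 2.51 on the 2 slides that held both, and by 2.17 on the WT slide that held both. With scan day as a block the WT difference was 1.12, with an adjusted p of 0.196, and with slide as a block 1.27, with an adjusted p of 0.131.

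Trim54, also called MuRF3, binds and stabilises microtubules and also binds the Z-disc and M-band. Its level was 4.85, 6.74 and 6.62 on KO denervated arrays, against 6.92, 7.35 and 6.87 on KO control arrays. The KO denervated arrays all lay below the KO control arrays, with KO denervated 1 far below the other KO denervated arrays. In WT it was 6.36, 7.16 and 6.92 on denervated arrays, against 6.84, 7.08 and 7.22 on control arrays, and the groups overlapped. The difference was -0.98 ± 0.42 in KO, with an adjusted p of 0.0782, and -0.24 ± 0.42 in WT, with an adjusted p of 0.688. Without KO denervated 1 the KO difference was -0.36, with an adjusted p of 0.258. It passed the threshold without KO denervated 2 (adjusted p 0.0366) and without KO denervated 3 (adjusted p 0.0494).

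Trim63, also called MuRF1, is the member of the trio best known as a ligase of atrophying muscle, and is set beside its relatives for comparison. Its brightest probe gave 6.33, 6.06 and 5.72 on KO denervated arrays, against 6.14, 6.12 and 5.59 on KO control arrays. In WT it gave 5.15, 5.75 and 5.84 on denervated arrays, against 5.45, 5.46 and 5.68 on control arrays. Groups overlapped in both genotypes. The differences were 0.09 ± 0.23 in KO and 0.05 ± 0.23 in WT, with 95% intervals of -0.42 to 0.59 and -0.45 to 0.56. A dimmer Trim63 probe, designed to another transcript record, differed by 1.65 in KO and 0.94 in WT, so the size depends on the probe. The call does too: with the mean of both probes Trim63 was higher in KO by 0.87 (adjusted p 0.0313), and differed by 0.50 in WT (adjusted p 0.207). Trim54 and Trim55 had 1 probe each, and this check could not be made for them.

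**Figure D2:**
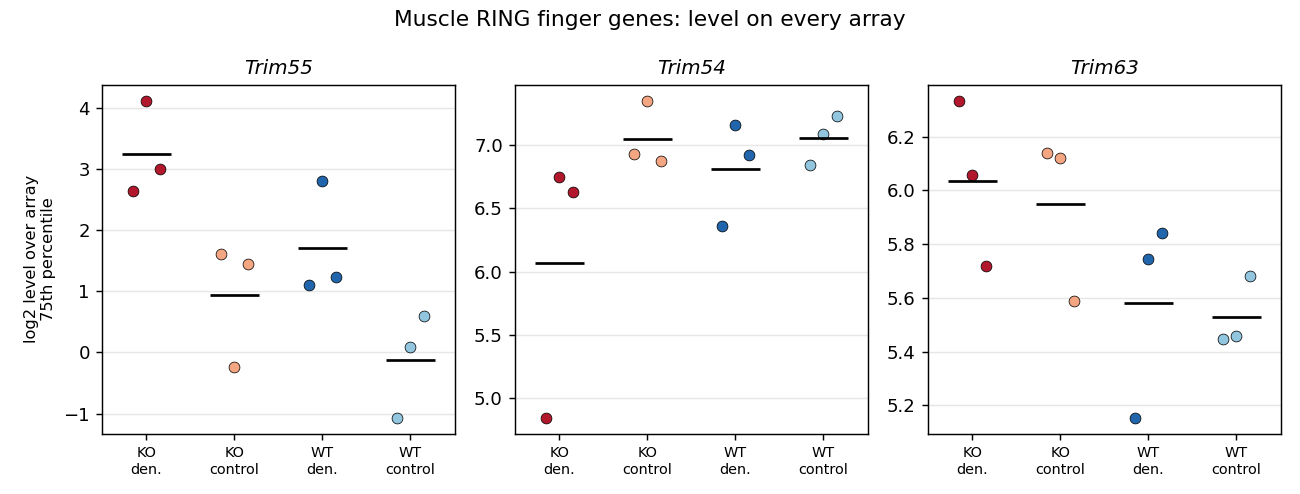
Level of Trim55, Trim54 and Trim63 on every array (vertical axis, log2 signal over the array's 75th percentile, with its own range in each panel), for KO denervated, KO control, WT denervated and WT control muscle. Points are arrays and bars are means of 3 arrays. Trim55 is higher in denervated than control muscle in both genotypes without overlap, Trim54 has 1 KO denervated array at 4.85, and Trim63 groups overlap.

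Genes listed with titin and the M-band were called in both directions. Binding of each protein to the muscle RING fingers was not checked. Of these 10 genes, all measured, 3 were higher and 5 lower in denervated KO muscle, with a median of -0.68. In denervated WT muscle 3 were higher and 4 lower, with a median of -0.20. These counts stand beside 23.7% higher and 23.2% lower among all genes in KO, and 18.7% and 20.6% in WT. Myom3, a myomesin of the M-band, was higher by 2.71 in KO and 2.95 in WT. Fhl2, a LIM protein that binds titin, was higher by 2.16 and 2.69. Capn3, a protease anchored on titin, was lower, by -1.96 in KO and -1.36 in WT. The fibre markers, of which 7 of 10 were called lower in KO and 1 of 10 in WT, had a median difference of -0.78 in KO and -0.11 in WT and a summed level of 10.9 to 11.4 on KO denervated, 11.8 to 11.9 on KO control, 11.1 to 11.7 on WT denervated and 11.4 to 11.8 on WT control arrays. No fibre marker was called for a difference between the KO and WT responses. The part of the fibre markers in the muscle RING finger results was not tested.

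Among the PHD and bromodomain members, 2 of 4 were called lower in each genotype, and no member was called higher. Trim66, or TIF1-delta, is known as a chromatin protein of male germ cells that binds heterochromatin protein 1. Its level was 0.74, 1.55 and 1.59 on KO denervated arrays, against 5.08, 4.42 and 4.70 on KO control arrays. In WT it was 1.08, 2.12 and 1.90 on denervated arrays, against 4.38, 3.97 and 5.36 on control arrays. This was the largest difference of the 35 measured members in both genotypes, and every denervated array lay more than 1 log2 unit below every control array. Trim66 was lower by -3.44 ± 0.39 in KO (10.8-fold, adjusted p 4.05e-05) and by -2.87 ± 0.39 in WT (7.31-fold, adjusted p 0.000196). The call was kept under all 24 alternatives in each genotype, and within slides the differences were -3.11, -3.53 and -3.30. Only 1 Trim66 probe was kept, so averaging over kept probes could not change the call. Other Trim66 probes were not well above background on any array, in control muscle either, and did not show the fall. The fall of Trim66 thus rests on 1 probe.

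Trim24, or TIF1-alpha, is a coregulator of nuclear receptors and reads histone marks. It had 1.66, 2.18 and 1.72 on KO denervated arrays, against 2.82, 2.77 and 2.66 on KO control arrays, and 1.81, 2.24 and 1.82 on WT denervated arrays, against 2.72, 2.77 and 2.87 on WT control arrays. The arrays of replicate 2 were the highest of the denervated group in each genotype, and no denervated array reached a control array. The differences were -0.90 ± 0.17 in KO and -0.83 ± 0.17 in WT, with adjusted p of 0.00146 and 0.00313. Trim28, or KAP1, the corepressor of zinc-finger repressors of the KRAB type, differed by -0.01 in KO and 0.30 in WT. Trim33, or TIF1-gamma, known to bind Smad proteins, differed by 0.17 in KO and -0.19 in WT, and neither was called. Of 11 heterochromatin partners of these proteins, 1 was lower in each genotype and none was higher. It was Mta1, a subunit of the NuRD complex, in KO (-0.41), and Hdac2, a histone deacetylase, in WT (-0.41), and the background of 46.9% and 39.2% called is given above.

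The start region of Trim66 is shown because it belongs to the largest fall. It spans 250 bases before to 50 bases after the start of the transcript in the RefSeq table of build GRCm38.p6, at chr7:109508085-109508384 on the minus strand. It is written 5′ to 3′ on the gene's strand.
Trim66: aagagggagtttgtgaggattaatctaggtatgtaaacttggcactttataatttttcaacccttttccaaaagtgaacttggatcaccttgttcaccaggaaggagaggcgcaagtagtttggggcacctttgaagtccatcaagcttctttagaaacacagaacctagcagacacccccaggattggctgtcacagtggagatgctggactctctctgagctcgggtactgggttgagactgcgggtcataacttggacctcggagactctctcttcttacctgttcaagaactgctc
The E-box of myogenic factors, CAGCTG, was searched on both strands, as were the interferon-stimulated response element, read as GAAA, any 2 bases and GAAA again, a forkhead site GTAAACA, a Smad-binding palindrome GTCTAGAC and a MEF2 site by name. None of them is in this window, which says only that these letters are not in it. Of all 32851 start regions in the table, 16.3% hold CAGCTG, 3.44% the interferon element, 3.65% the forkhead site, 0.213% the Smad palindrome and 0.262% the MEF2 site. The table matched 38 of the 51 members, with 52 start regions, and 36.5% of these hold CAGCTG.

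The PRY-SPRY class held 9 of the 17 calls in KO, 4 higher and 5 lower among 17 measured, and 8 of the 16 calls in WT, 3 higher and 5 lower. That is 52.9% and 47.1% of its measured members, Trim10 among the lower ones, near the 46.9% and 39.2% of all genes. The rises were led by Trim25 and Trim11. Trim25 adds ubiquitin to the viral RNA sensor RIG-I and was first known as a gene induced by oestrogen. Its level was 1.85, 1.92 and 1.82 on KO denervated arrays, against 1.04, 0.93 and 1.02 on KO control arrays. In WT it was 2.30, 2.46 and 2.09 on denervated arrays, against 1.03, 0.81 and 0.59 on control arrays. The arrays separated widely in both genotypes, and the WT denervated arrays all lay above the KO denervated arrays. Trim25 was higher by 0.87 ± 0.15 in KO and 1.47 ± 0.15 in WT, with adjusted p of 0.000669 and 2.34e-05. A second Trim25 probe moved in the same direction in both.

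The start region of Trim25 is shown as that of a gene that rose in both genotypes. It lies at chr11:88999153-88999452 on the plus strand, and its capitals mark the E-box CAGCTG, here at the last 6 bases of the window.
Trim25: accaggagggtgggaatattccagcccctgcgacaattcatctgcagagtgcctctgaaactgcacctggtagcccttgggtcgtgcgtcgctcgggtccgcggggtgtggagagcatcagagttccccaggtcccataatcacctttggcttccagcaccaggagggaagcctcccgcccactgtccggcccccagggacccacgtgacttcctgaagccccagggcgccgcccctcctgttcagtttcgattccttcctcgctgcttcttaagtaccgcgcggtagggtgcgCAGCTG
Capitals mark letters found by search and not a site shown to be used. CAGCTG was also in start regions of Trim39, called higher in both genotypes, and of Trim47, called lower in both. A link between these letters and the direction was not tested.

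Trim11 is a ligase linked to the removal of misfolded proteins. It had 2.11, 2.25 and 2.50 on KO denervated arrays, against 0.97, 1.04 and 1.09 on KO control arrays, and 1.84, 1.98 and 2.47 on WT denervated arrays, against 1.14, 1.25 and 1.17 on WT control arrays. Control arrays lay close together and below all denervated arrays. The differences were 1.26 ± 0.17 in KO (adjusted p 0.00016) and 0.91 ± 0.17 in WT (adjusted p 0.00178), and both calls were kept under all 24 alternatives. Trim39, which slows the anaphase-promoting complex, was higher by 0.66 ± 0.17 in KO and 0.51 ± 0.17 in WT. Trim7, which binds glycogenin, was higher by 0.86 ± 0.26 in KO (adjusted p 0.0181) and differed by 0.51 ± 0.26 in WT (adjusted p 0.144).

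The lower PRY-SPRY members included Trim65, Trim47 and Trim35 in both genotypes. Trim65, a ligase of the RNA sensor MDA5, had -1.12, -1.80 and -1.28 on KO denervated arrays, against -0.49, -0.13 and -0.54 on KO control arrays. In WT it had -1.07, -1.84 and -1.24 on denervated arrays, against -0.34, -0.30 and -0.65 on control arrays. The differences, -1.01 ± 0.24 in KO and -0.95 ± 0.24 in WT, passed with adjusted p of 0.00481 and 0.00843. Trim47 was lower by -0.65 ± 0.16 in KO and -0.74 ± 0.16 in WT. Trim35 was lower by -0.51 ± 0.17 in KO and -0.54 ± 0.17 in WT.

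Trim10, known from the maturation of red blood cells, was well above background only on the 3 WT control arrays. Its probe gave -4.81, -6.38 and -4.85 on WT denervated arrays, against -4.05, -3.01 and -3.30 on WT control arrays. Since the probe was kept only through the group where it is brightest, a lower level elsewhere follows from the filter, and no test of it is given. Neither KO group was well above background, and with normexp background correction the sign turned, to 0.23 in KO and 0.17 in WT. All 4 erythroid markers measured were lower beside it, by a median of -2.18 in KO and -1.62 in WT. Their summed level was 2.40 to 3.63 on KO denervated, 4.25 to 5.32 on KO control, 3.52 to 4.62 on WT denervated and 5.14 to 5.70 on WT control arrays. Their part in the Trim10 values was not tested.

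Among PRY-SPRY members known as interferon-inducible, which were not a fixed list, calls went both ways: Trim25 was higher in both genotypes, Trim21 lower in KO and Trim34 lower in WT, where its sign turned with normexp background correction (0.082). Trim21, the cytosolic antibody receptor, was lower in KO by -0.76 ± 0.18 (adjusted p 0.00505) and differed by -0.44 ± 0.18 in WT (adjusted p 0.07). Trim34, one of a gene cluster of restriction factors on chromosome 7, was lower in WT by -0.84 ± 0.25 (adjusted p 0.0221) and differed by -0.32 ± 0.25 in KO (adjusted p 0.313). With the replicate number as a block, the adjusted p of Trim34 in WT was 0.0558. Trim30 differed by -0.56 in KO and -0.63 in WT, and Trim12 by 0.08 in KO and -0.42 in WT, with no call. Trim12, Trim30 and Trim34 are older names, now Trim12a, Trim30a and Trim34a. Their near-identical neighbours may bind the same probes, so these values are uncertain for any single copy.

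The interferon-stimulated response element was present in 7 of the 52 start regions of members, 13.5% of them, against 3.44% of all start regions. The 6 genes were Trim2, Trim12a, Trim21, Trim26, Trim30a and Trim34a. The start regions of 3 of these genes are shown as examples. Their genes had negative differences in denervated WT muscle, called among these 3 for Trim34 alone. Trim30 (-0.63, not called) and Trim2 (-0.67, called lower) were also negative in WT and are not shown. A link between the element and the differences was not tested. Capitals mark the element on either strand, so that a match on the other strand reads TTTC, any 2 bases and TTTC. The start regions lie at chr7:104315446-104315745 on the minus strand for Trim12a, chr7:102565433-102565732 on the minus strand for Trim21 and chr7:104244207-104244506 on the plus strand for Trim34a.
Trim12a: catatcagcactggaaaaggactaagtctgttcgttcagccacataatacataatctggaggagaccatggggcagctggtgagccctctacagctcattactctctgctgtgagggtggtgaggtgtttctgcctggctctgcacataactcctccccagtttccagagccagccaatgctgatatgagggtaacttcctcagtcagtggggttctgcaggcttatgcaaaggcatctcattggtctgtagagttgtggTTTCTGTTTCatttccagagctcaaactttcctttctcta
Trim21: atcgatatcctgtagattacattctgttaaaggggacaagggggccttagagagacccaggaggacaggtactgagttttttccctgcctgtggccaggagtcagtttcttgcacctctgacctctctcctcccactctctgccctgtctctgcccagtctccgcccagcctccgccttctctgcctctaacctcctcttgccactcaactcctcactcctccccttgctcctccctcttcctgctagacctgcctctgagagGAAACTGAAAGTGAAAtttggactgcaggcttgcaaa
Trim34a: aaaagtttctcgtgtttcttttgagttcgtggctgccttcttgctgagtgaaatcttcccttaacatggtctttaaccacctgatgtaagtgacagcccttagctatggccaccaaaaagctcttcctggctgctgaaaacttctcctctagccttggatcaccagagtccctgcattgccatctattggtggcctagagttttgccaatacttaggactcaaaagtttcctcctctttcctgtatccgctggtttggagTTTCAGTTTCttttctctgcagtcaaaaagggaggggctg
In each of them the match begins within 20 bases after the start of the transcript, and in Trim21 a pair of matches overlap. Trim26, which also holds the element, differed by 0.11 in KO and 0.08 in WT on the probe used. Another Trim26 probe, well above background on all 12 arrays, differed by -0.81 in KO and -0.34 in WT, and a dim one by 0.11 and 0.62.

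Other interferon-response genes were called in both directions. Of 23 measured among 25 listed, 2 were higher and 5 lower in denervated KO muscle, with a median of -0.40, and 2 were higher and 11 lower in denervated WT muscle, with a median of -0.61. The share called was 30.4% in KO, against 46.9% of all genes, and 56.5% in WT, against 39.2% of all genes. The difference between the KO and WT responses was called for none of the 23, and for 0.184% of all genes. The unlike shares are thus not shown to be a difference between genotypes. Usp18, which removes ISG15 from proteins, was lower by -0.95 in KO and -1.49 in WT. Rsad2, an antiviral enzyme, was lower by -0.76 and -0.87. Against them, Cxcl10, a chemokine, was higher by 1.20 in KO and 2.25 in WT, and Ifi35 by 0.90 and 1.02. The macrophage markers, of which 6 of 12 were called higher in KO and 3 of 12 in WT, had a summed level of 6.08 to 6.50 on KO denervated, 4.97 to 6.02 on KO control, 5.98 to 6.18 on WT denervated and 5.20 to 5.75 on WT control arrays. Its part in these results was not tested.

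**Figure D3:**
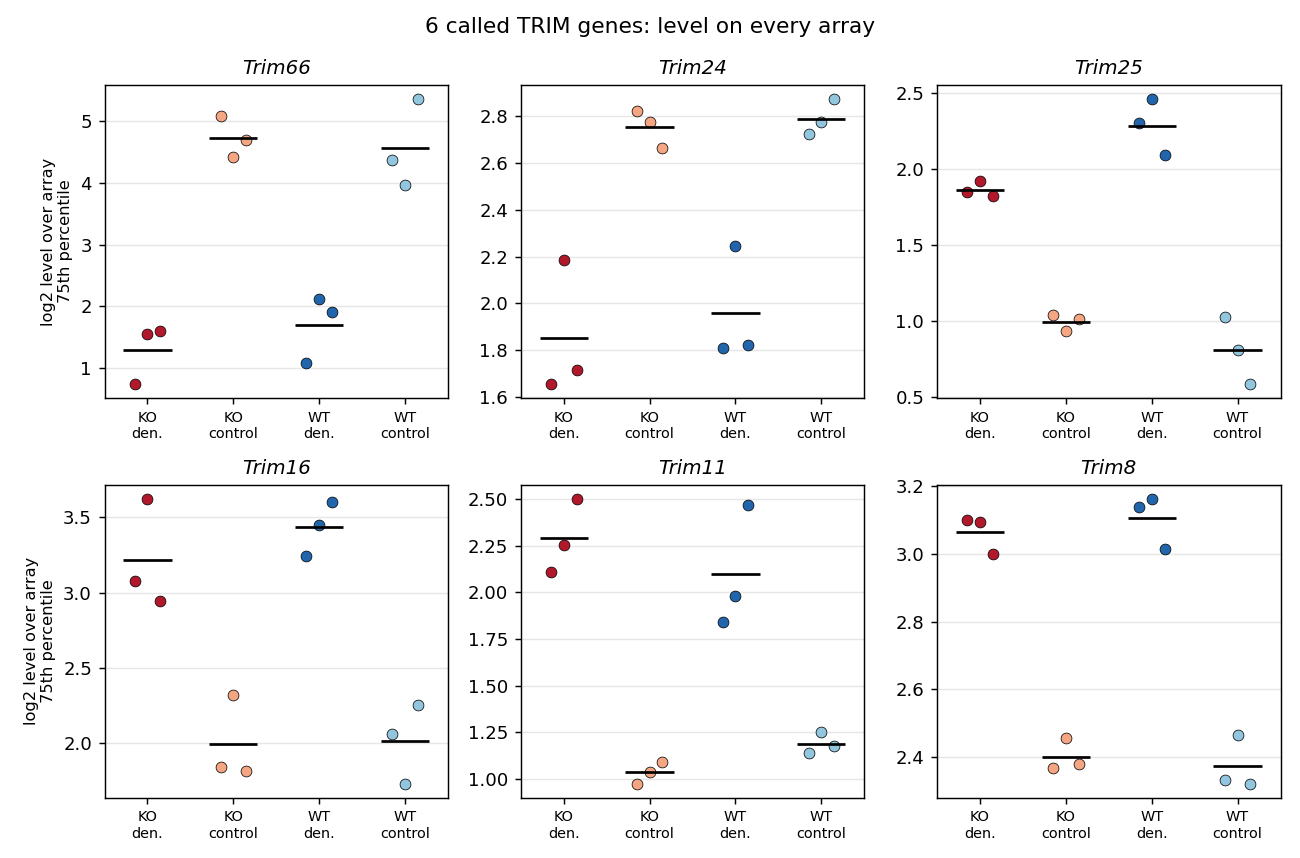
Level of Trim66, Trim24, Trim25, Trim16, Trim11 and Trim8 on every array (vertical axis, log2 signal over the array's 75th percentile, with its own range in each panel), for KO denervated, KO control, WT denervated and WT control muscle. Points are arrays and bars are means of 3 arrays. In all 6 panels denervated and control arrays of a genotype do not overlap, with Trim66 and Trim24 lower and the others higher in denervated muscle.

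Outside these classes, Trim16 and Trim8 were higher in both genotypes. Trim16 has no RING finger and is known in human cells to mark damaged lysosomes for autophagy. It had 3.08, 3.62 and 2.94 on KO denervated arrays, against 1.84, 2.32 and 1.81 on KO control arrays, and 3.25, 3.45 and 3.60 on WT denervated arrays, against 2.06, 1.73 and 2.25 on WT control arrays. All denervated arrays lay above all control arrays. The differences were 1.22 ± 0.22 in KO (adjusted p 0.00101) and 1.42 ± 0.22 in WT (adjusted p 0.000517). Its other 2 probes gave smaller differences, 0.28 and 0.54 in KO and 0.54 and 1.11 in WT. With the mean of its probes the KO call was lost (0.68, adjusted p 0.0577) and the WT call was kept (1.02).

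Trim8, a regulator of cytokine signalling that binds Socs1, had 3.10, 3.10 and 3.00 on KO denervated arrays, against 2.37, 2.46 and 2.38 on KO control arrays. In WT it had 3.14, 3.16 and 3.02 on denervated arrays, against 2.33, 2.47 and 2.32 on control arrays. Arrays of a group agreed closely, and the differences were 0.66 ± 0.11 in KO and 0.73 ± 0.11 in WT, with adjusted p of 0.000778 and 0.000549. The second Trim8 probe went the other way, by -0.64 in KO and -0.05 in WT. With the mean of both probes the differences were 0.01 in KO and 0.34 in WT, and neither passed, so the direction of Trim8 rests on the choice of probe.

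Trim13, a ligase anchored in the endoplasmic reticulum, was higher by 0.62 ± 0.19 in KO (adjusted p 0.0192) and 0.53 ± 0.19 in WT (adjusted p 0.045). Trim37, a ligase mutated in the human growth disorder mulibrey nanism, was higher by 0.60 ± 0.21 in WT (adjusted p 0.0379) and differed by 0.46 ± 0.21 in KO (adjusted p 0.0882). The NHL members, which bind RNA or cargo, were lower or did not pass. Trim32 was lower in KO by -0.61 ± 0.21 (adjusted p 0.0363) and differed by -0.38 ± 0.21 in WT (adjusted p 0.183). Trim3, a brain ligase linked to myosin V, was lower in KO by -0.41 ± 0.15 (adjusted p 0.0467), with overlapping arrays, and differed by -0.11 in WT. Trim2, a ligase of neurofilament light chain mutated in a human neuropathy, was lower in WT by -0.67 ± 0.19 (adjusted p 0.0164) and differed by 0.13 ± 0.19 in KO.

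In both genotypes the calls of Trim8, Trim11, Trim16, Trim24, Trim25, Trim47, Trim65 and Trim66 were kept whichever array was left out. Some others, Trim55 with its large difference among them, depended on single arrays. In KO, 11 of the 17 calls, Trim10 among them, were kept whichever of the 12 arrays was left out. The 6 that were lost without some array were Trim55, Trim13 (without KO denervated 1 or 2 or KO control 3, adjusted p up to 0.0755), Trim7 (without KO denervated 3 or KO control 3, up to 0.0606), Trim32 (without KO denervated 1 or any KO control array, up to 0.135), Trim35 (without KO denervated 2 or 3 or any KO control array, up to 0.0925) and Trim3. Trim3 was lost without each array except KO denervated 3 and KO control 1, with adjusted p up to 0.14. In WT, 9 of the 16 calls were kept, again with Trim10. The 7 that were lost without some array were Trim55, Trim13 (8 arrays, up to 0.128), Trim39 (without WT denervated 1 or 2 or WT control 1 or 2, up to 0.129), Trim37 (without WT denervated 1 or 2 or WT control 1 or 3, up to 0.123), Trim35 (without WT denervated 2 or 3 or WT control 1 or 2, up to 0.0906), Trim2 (without WT denervated 2 or WT control 1 or 3, up to 0.0606) and Trim34 (without WT denervated 1 or WT control 1, up to 0.0831). Trim13 in WT was kept without WT denervated 2, KO denervated 2, KO denervated 3 and KO control 3. Within slides, all 34 differences of called KO members and all 16 of called WT members, Trim10 among them, had the sign of the fit. These differences come from the arrays that made the calls, so their signs are no separate support. In WT only slide 1 held both groups.

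Probes of the same gene did not always move together. Other kept probes existed for 19 members. Of 12 such probes of called KO members, 11 had the same sign as the probe used, the exception being Trim8, and of 13 of called WT members, 10 did, the exceptions being Trim8, Trim37 and Trim39. Among members that were not called, Trim45, which has a filamin repeat, differed by -0.03 in KO and -0.05 in WT on its brightest probe, and by -2.92 and -2.48 on its other probe, which was well above background on all 12 arrays. The other Trim27 probe, designed to another transcript record, differed by 1.31 in KO and 0.72 in WT, against -0.05 and 0.13 on the probe used. The other Trim7 probe differed by 1.65 and 1.58. With the mean of kept probes 6 members were called higher and 9 lower in KO, and 5 higher and 10 lower in WT. Lower WT calls were 8 with the brightest probe, so averaging added calls as well as removing some. Calls lost with the mean of kept probes included Trim3 in KO (adjusted p 0.0716), and Trim37 (0.27, adjusted p 0.0847) and Trim39 (0.18, adjusted p 0.469) in WT. Those of Trim13 were lost in KO (0.12, adjusted p 0.824) and WT (0.44, adjusted p 0.411). Both Trim13 probes rose, however, by 0.62 and 0.74 in KO and by 0.53 and 0.35 in WT. The mean on each array used only the probes with a value there. The KO value of 0.12 lies below both probes and thus does not show that they disagree.

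**Figure D4:**
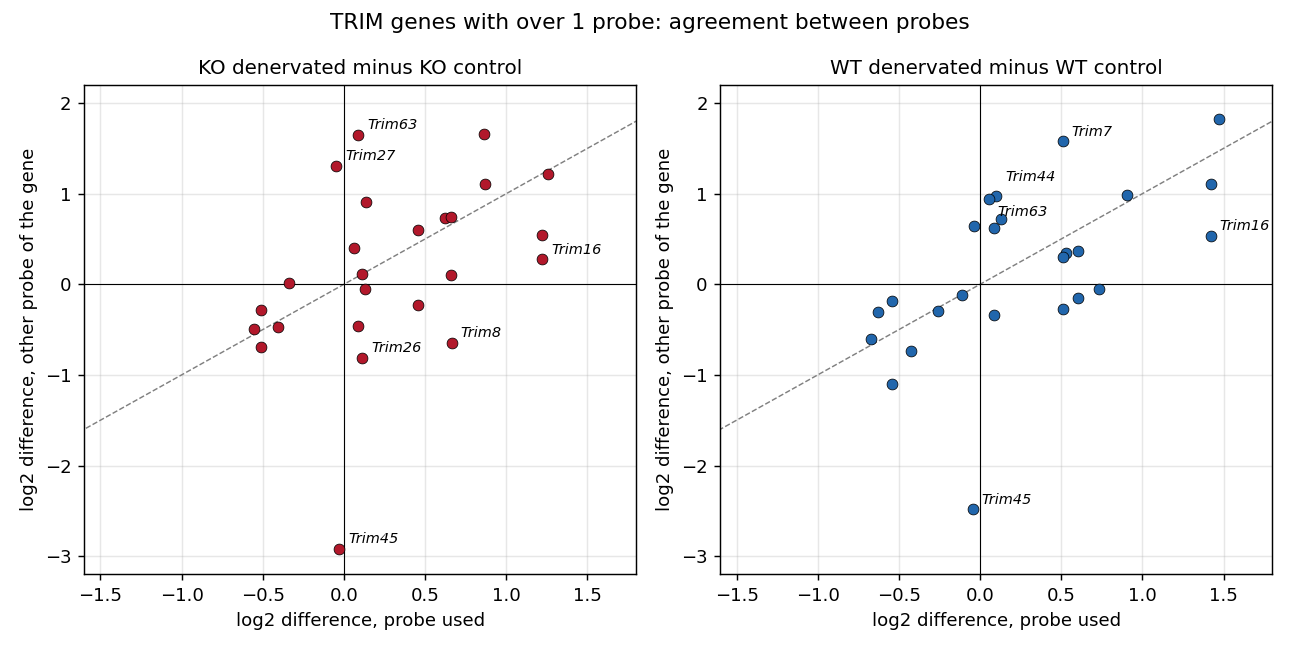
Log2 difference between denervated and control muscle on the probe used (horizontal axis) and on every other kept probe of the same gene (vertical axis), in KO (left) and WT (right), for the members with more than 1 kept probe and for Trim63. The dashed line marks equal values and named points lie over 0.8 from it. Trim45 stands apart in both panels, at -2.92 and -2.48 on its other probe.

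Some TRIM proteins carry other names, and 6 of 8 such genes were measured. In denervated KO muscle 2 were higher and 2 lower, and in denervated WT muscle 2 were higher and 1 lower, where 46.9% of all genes were called in KO and 39.2% in WT. Bspry, a B-box and SPRY protein without a RING finger, was higher by 2.66 in KO and 2.64 in WT. Mid2, a microtubule-binding ligase, was higher by 1.43 and 1.63. Fsd2, a fibronectin and SPRY domain protein, was lower by -3.24 in KO and -2.82 in WT. Cmya5, or myospryn, a large muscle protein of the same design that binds desmin, was lower by -0.82 in KO (adjusted p 0.00446) and differed by -0.42 in WT (adjusted p 0.098).

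Whether loss of Smad4 changed TRIM expression was asked in denervated and in control muscle. No member was called between KO and WT by limma in either state. In denervated muscle 2.19% of all genes were called, and 4 members (11.4%) had an unadjusted p under 0.05, against 16.3% of all genes. In control muscle 0.00657% of all genes were called, which is Smad4 alone, and 1 member, Trim10, had an unadjusted p under 0.05, against 4.05% of all genes. For the mean of both states the background was 0.913%, with 3 members, Trim10, Trim13 and Trim55, at an unadjusted p under 0.05, which is 8.57% against 11.2% of all genes, and none called. Trim10 was not well above background in either KO group, and no size is given for it. The arrays of KO and WT did not overlap for 17.1% of members in denervated muscle and 5.71% in control muscle, beside 21.7% and 8.55% of all genes. In control muscle these members were Trim10 and Trim11.

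Trim55 had the largest genotype difference, with KO above WT. It was 1.54 ± 0.63 in denervated muscle, with a 95% interval of 0.15 to 2.94 and an adjusted p of 0.258. In control muscle it was 1.07 ± 0.63, with an interval of -0.33 to 2.46. Arrays of KO and WT overlapped in both states. Trim54 differed by -0.74 ± 0.42 in denervated muscle (interval -1.67 to 0.19) and by 0.00 ± 0.42 in control muscle (interval -0.93 to 0.93). Trim63 differed by 0.45 ± 0.23 and 0.42 ± 0.23. In denervated muscle these intervals include differences of over 2-fold in Trim54 and Trim55.

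Trim33 is a known partner of Smad4 and Smad2/3, also described as a ligase of Smad4. It had 0.70, 1.10 and 0.83 on KO denervated arrays, against 0.64, 0.79 and 0.71 on WT denervated arrays, and 0.85, 0.74 and 0.55 on KO control arrays, against 0.87, 0.80 and 1.03 on WT control arrays. The genotypes overlapped in both states. The KO minus WT difference was 0.17 ± 0.15 in denervated muscle, with an interval of -0.15 to 0.49, and -0.19 ± 0.15 in control muscle, with an interval of -0.51 to 0.13.

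The other members with an unadjusted p under 0.05 in denervated muscle were Trim2, Trim25 and Trim12, named, like Trim10 and Trim13 above, after their values were seen. Trim2 had -1.64, -1.93 and -2.26 on KO denervated arrays, against -2.38, -2.76 and -2.67 on WT denervated arrays, which do not overlap. In control muscle it had -2.00, -2.23 and -1.99 on KO arrays, against -1.83, -2.20 and -1.76 on WT arrays. The denervated difference was 0.66 ± 0.19 with an adjusted p of 0.116, and 0.74 and 0.78 within the 2 slides that held both groups. A second Trim2 probe gave 0.78. Trim25 differed by -0.42 ± 0.15 (adjusted p 0.186), and by -0.45 and -0.36 within slides. Trim12 differed by 0.35 ± 0.16 (adjusted p 0.299).

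The difference of the denervation responses, KO minus WT, was tested as an interaction. No member was called by limma, where 0.184% of all genes were, and 3 members (8.57%) had an unadjusted p under 0.05, against 9.44% of all genes. These were Trim2 (0.80 ± 0.27, adjusted p 0.363), Trim25 (-0.61 ± 0.21, adjusted p 0.373) and Trim12 (0.51 ± 0.22, adjusted p 0.501). The interaction was 0.48 for Trim55, -0.74 for Trim54, 0.36 for Trim33 and 0.03 for Trim63. A call in 1 genotype and not in the other, as for Trim2, Trim3, Trim7, Trim21, Trim32, Trim34 and Trim37, is thus not shown to be a difference between genotypes.

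**Figure D5:**
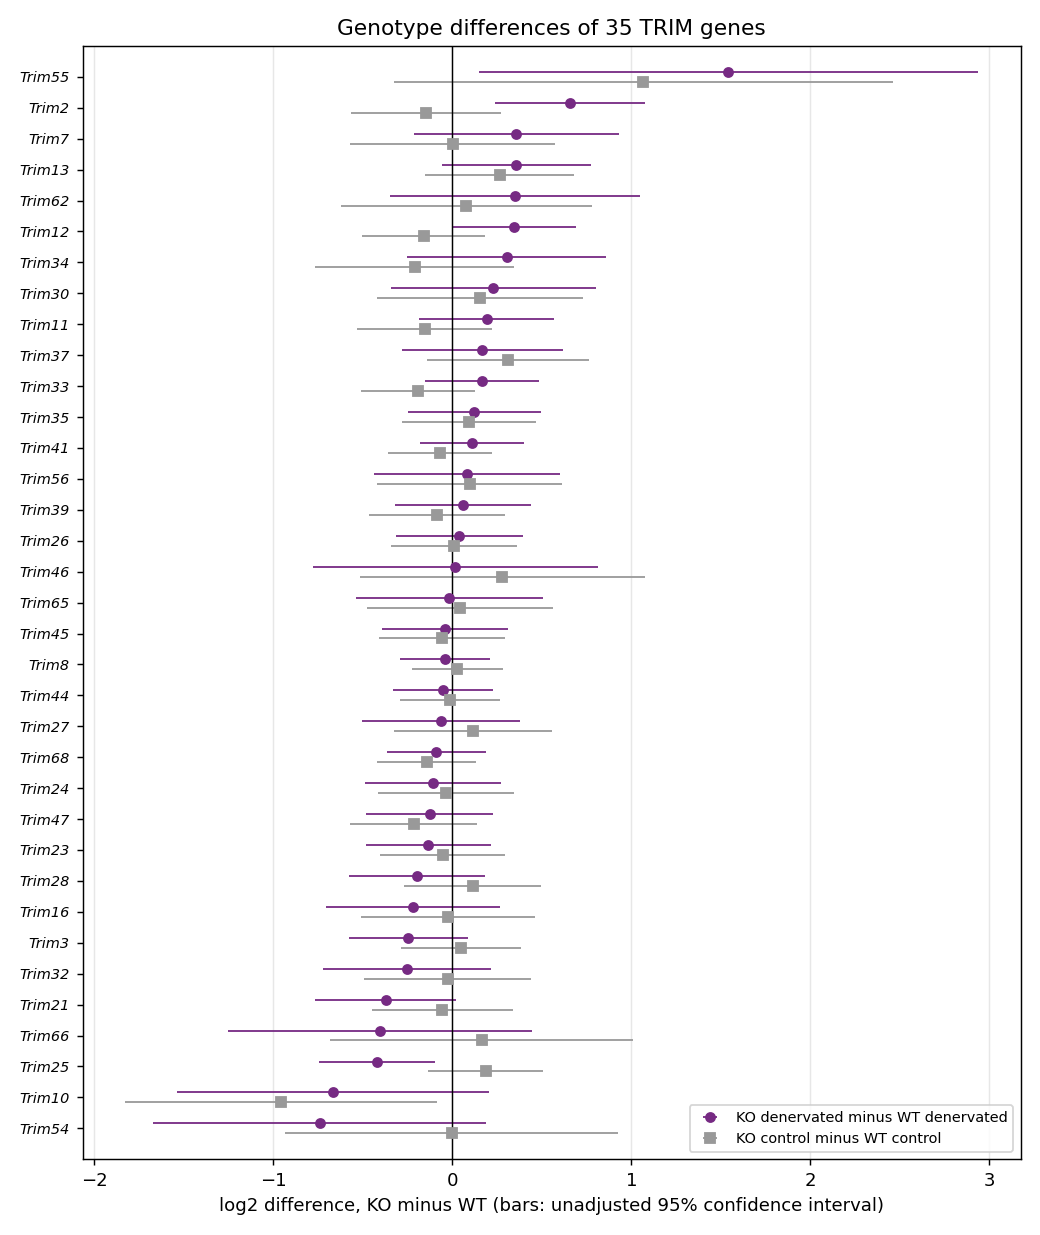
Log2 difference between KO and WT (horizontal axis) for the 35 kept TRIM genes, in denervated muscle (purple circles) and control muscle (grey squares), ordered by the denervated value. Bars are unadjusted 95% confidence intervals of the fit on 3 arrays a group. No member passed an adjusted p of 0.05, and Trim55 has the widest distance from 0 on the higher side.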

How the data were processed

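One-colour Agilent scanner files of 12 arrays were used, whose intensity values (gProcessedSignal) the authors made with Agilent Feature Extraction, version 10.5.1.1 per the submitters' processing notes and 10.7.3.1 per the file headers. Control spots and outlier flags were left out, spots of a probe were averaged (41174 probes of 43379 spots), and log2 values were scaled to the 75th percentile of each array. Probes had to be well above background on all 3 arrays of at least 1 group, and the brightest kept probe stood for a gene. Probes were named by the files and RefSeq (GRCm38.p6). limma 3.58.1 in R 4.3.3 fitted the 4 groups together, with Benjamini-Hochberg adjustment over 15226 genes. The number of arrays limits the precision. The fit was tested on simulated data. The authors' deposited processed intensity table of the same arrays served as an alternative. Members and gene lists were chosen with earlier results of these data known. Named are Trim54 and Trim55 with Trim63 beside them, called members, Trim33 between genotypes, and up to 4 members of each other list. T and B cell, granulocyte and mast cell, smooth muscle and pericyte, fibroblast, adipocyte and satellite cell markers were also counted. In denervated KO muscle 0 were higher and 1 of 2, 3 of 6, 2 of 6, 0 of 6, 0 of 3 and 0 of 3 were lower. In denervated WT muscle 0 were higher and 1 of 2, 1 of 6, 3 of 6, 1 of 6, 0 of 3 and 0 of 3 were lower. Deviations from group means of same-numbered denervated and control arrays correlated at 0.30, 0.11 and 0.23 in WT and at 0.09, 0.02 and 0.17 in KO. Same-numbered denervated arrays of KO and WT, which are of different animals, correlated at 0.20, 0.30 and 0.01. Those numbered 1 and 2 shared a slide and those numbered 3 did not, so these correlations cannot separate pairs from slides. In WT, denervated and control arrays numbered 2 and 3 shared no slide. Differently numbered denervated and control arrays of WT correlated at -0.25 to 0.02. A pairing of WT arrays is thus neither shown nor excluded. The main fit used no pairing in either genotype, and the replicate number was a block in an alternative only. Alternatives were another scaling, background correction, filter, probe rule, block and sample set, and each array left out.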

Additional observations from a re-analysis of the deposited data

How the results depend on the processing

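Of the denervation calls, 3 of 17 in KO (Trim11, Trim24, Trim66) and 6 of 16 in WT (the same 3 with Trim16, Trim25 and Trim47) were kept under all 24 alternatives. Normexp background correction left 3 higher and 2 lower members in KO (8 and 9 at the setting used in the text) and 3 higher and 3 lower in WT (8 and 8). It reversed Trim10, to 0.23 in KO and 0.17 in WT, and Trim34 in WT, to 0.082. The count of higher WT members was 5 with the array median and with the mean of kept probes, and 4 without a filter, with slide as a block and with scan day as a block. Leaving out arrays in turn gave 4 to 8 higher and 5 to 9 lower in WT, and 6 to 8 higher and 6 to 9 lower in KO. The count of genotype calls ran between 0 and 1 when arrays were left out. The 1 call, for the mean of both states without WT denervated 2, was Trim10, whose probe was above background in WT control muscle alone, so no size is given. With the replicate block, 9 higher and 8 lower members were called in KO and 7 higher and 8 lower in WT. In KO, where a pairing of arrays is not shown, Trim54 then passed (adjusted p 0.0432) and Trim32 (0.0535) and Trim3 (0.0742) did not. The cause of these changes was not tested. Signal near background limits the 16 members not kept, Trim10, Trim46 and Trim62.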
